A study of Mus musculus with 6 samples.

Results

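The genes described are 10 genes of the lysosome: 8 cathepsins (Ctsa, Ctsb, Ctsc, Ctsd, Ctsh, Ctsl, Ctss and Ctsz), the lysosomal membrane protein Lamp1, and Tfeb, a transcription factor of lysosomal genes. They are 10 of the 49315 genes in the count table, found by matching the table's Ensembl identifiers to gene symbols. The set was selected on the KO against WT values of these same libraries as well as on gene names, so the member values below are a description and carry no test. Of the 10 genes, 9 passed the filter on low counts and Ctss did not.

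RNA sequencing was done on TKO, a mouse ovarian cancer cell line whose labels give the tissue as ovary and do not name the 3 genes deleted in its triple knockout background. KO cells lack MNRR1, the protein encoded by Chchd2, which acts in mitochondria on respiration and in the nucleus on transcription, and their labels name a single clone (Clone1). WT cells carry the same triple knockout with MNRR1 intact. There were 3 libraries of each genotype, and no treatment, time point or age is given. Nothing in the labels says that the libraries came from separate cultures, so the p-values below measure only the spread between these libraries, which may be technical. A difference between the clone and the line cannot be told apart from a difference due to the loss of MNRR1.

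Cathepsins are proteases made as inactive precursors, carried to the lysosome by mannose 6-phosphate receptors and activated in its acid interior, where they break down proteins taken up by the cell or delivered by autophagy. LAMP1 is a heavily glycosylated protein that lines the lysosomal membrane. TFEB is held in the cytoplasm when the kinase complex mTORC1 is active, and when it enters the nucleus it binds the CLEAR element, a sequence built on the E-box CACGTG, near the start sites of many lysosomal genes. Its activity is therefore set in large part by its location in the cell, which RNA levels do not measure.

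Library depth was 33226463 to 40983999 counts. The targeted gene followed the labels: Chchd2 had counts of 581, 717 and 658 in KO against 12835, 11824 and 13506 in WT, a log2 fold change of -4.37 (SE 0.06, adjusted p = 8.56e-12, edgeR quasi-likelihood test). Among defining markers of the labelled tissue, Wt1 had 23572 to 30133 counts and Krt18 had 9441 to 15321 counts in every library, while Pax8 had at most 19 counts and Cdh1 at most 23. Levels are given as CPM, the count scaled to a common library size. The summed level of 10 epithelial markers was 2250 to 2380 CPM in KO and 2780 to 2930 CPM in WT, that of 8 fibroblast markers 937 to 1000 and 884 to 928 CPM, and that of 6 endothelial markers 2.73 to 3.79 and 5.74 to 6.26 CPM. Single markers shifted by more than these sums. Log2 fold changes, KO over WT, ran from -1.88 to 0.46 over 9 tested epithelial markers. Those of 5 tested fibroblast markers ran from -9.4 to 0.84, and those of 3 tested endothelial markers from -2.23 to 2.54. The part of these shifts in the values below was not tested. In all, 8925 of 16033 tested genes (55.7%) were called, meaning an adjusted p under 0.05, with 4463 higher and 4462 lower in KO. Scaling by library totals in place of the trimmed mean of M values (TMM, which aligns the bulk of the genes) gave 5771 higher and 3294 lower and moved the median log2 fold change of all genes from 0.01 to 0.13.

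Promoters are shown for 3 members with higher RNA in KO, Ctsa, Ctsd and Lamp1, which each have E-boxes in a window at an annotated start site. Ctsc, the member with the lowest KO level relative to WT, is also shown and has none in its window. These promoters were picked with the RNA values known. Ctsl, called lower, also holds 1 E-box, and Ctsz and Tfeb, which were not called, hold none. Whether the E-boxes have a part in the RNA values was not tested. The windows run from 250 bases before to 50 after a start site of RefSeq (build GRCm38.p6) and are given 5′ to 3′ on the gene's own strand, with each CACGTG in capitals. Lamp1 lies at chr8:13158911-13159210 (+ strand), the second of the windows of Ctsa at chr2:164833523-164833822 (+ strand), Ctsd at chr7:142387778-142388077 (- strand) and Ctsc at chr7:88277835-88278134 (+ strand).
Lamp1: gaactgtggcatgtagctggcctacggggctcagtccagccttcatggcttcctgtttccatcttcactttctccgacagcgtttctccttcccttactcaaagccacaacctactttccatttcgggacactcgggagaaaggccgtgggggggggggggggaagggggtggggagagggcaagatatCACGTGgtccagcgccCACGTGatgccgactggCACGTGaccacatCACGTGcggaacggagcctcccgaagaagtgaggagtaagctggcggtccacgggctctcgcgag
Ctsa: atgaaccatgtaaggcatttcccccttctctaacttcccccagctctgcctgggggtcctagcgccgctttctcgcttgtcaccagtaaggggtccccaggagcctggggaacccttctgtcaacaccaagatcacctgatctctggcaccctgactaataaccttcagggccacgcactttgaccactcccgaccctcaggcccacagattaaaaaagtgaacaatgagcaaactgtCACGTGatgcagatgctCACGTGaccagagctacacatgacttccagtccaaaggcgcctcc
Ctsd: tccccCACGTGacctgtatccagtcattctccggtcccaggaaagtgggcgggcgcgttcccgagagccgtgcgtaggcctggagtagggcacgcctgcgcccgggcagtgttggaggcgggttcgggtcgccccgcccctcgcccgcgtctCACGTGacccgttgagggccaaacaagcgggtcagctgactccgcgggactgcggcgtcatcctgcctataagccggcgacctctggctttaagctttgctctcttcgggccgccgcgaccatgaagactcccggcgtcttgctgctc
Ctsc: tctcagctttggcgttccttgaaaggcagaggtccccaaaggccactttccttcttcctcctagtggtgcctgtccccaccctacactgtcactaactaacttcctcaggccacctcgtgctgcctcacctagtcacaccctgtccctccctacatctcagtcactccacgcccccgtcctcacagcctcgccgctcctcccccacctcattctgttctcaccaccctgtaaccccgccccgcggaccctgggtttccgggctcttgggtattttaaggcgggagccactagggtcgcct

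The Lamp1 window holds 4 E-boxes, which begin 61, 45, 28 and 15 bases before the start site. In the Ctsa window 1 E-box begins 12 bases before the start and the other begins 5 bases after it, and the other Ctsa start site has none in its window. The Ctsd window holds 2, at 245 and 98 bases before the start, and the Ctsl window holds 1, at 236 bases before it. No CACGTG was found in the windows of Ctsc, Ctss and Ctsz or in the 3 windows of Tfeb. Promoters of Ctsb and Ctsh are not shown. CACGTG reads the same on both strands, and it was present in 7.15% of all 32851 promoter windows of the same length. Counted by gene, 4 of the 8 members with a window held it, beside 8.09% of all genes with a window and 11.4% of the tested genes with one.

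The longer forms searched all contain the E-box. The form TCACGTG or its reverse complement CACGTGA was present in the windows of Lamp1, Ctsa and Ctsd, so in 3 of the 8 members with a window, beside 4.29% of all genes with a window and 6.77% of the tested genes with one. TCACGTGA, which reads the same on both strands, occurred 2 times in the Ctsa window and 1 time in the Ctsd window, and 0.974% of all windows hold it. The longest form searched, TCACGTGA with a G before it and a C after it, was found in none of the members' windows. It was present in 0.326% of all windows. All of these are matches of letters in a window and say nothing of binding. Among the tested genes with a window, CACGTG was held by 10.9% of the genes called higher, 12.8% of those called lower and 10.8% of those not called. For TCACGTG or CACGTGA the shares were 7.52%, 6.23% and 6.64% in the same order.

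**Figure D1:**
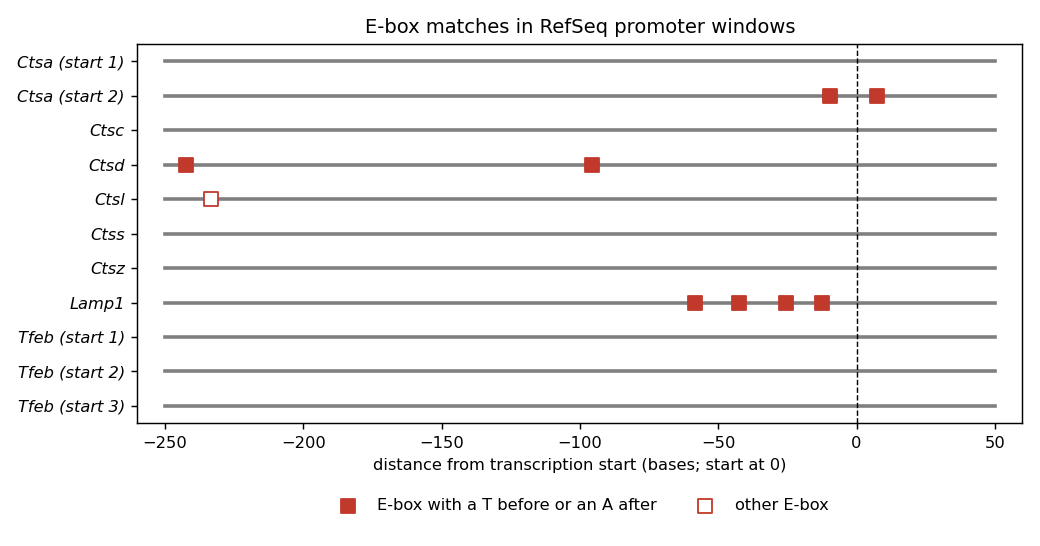
Position of CACGTG matches in the promoter windows of the members, in bases relative to the start site at 0. Each line is 1 window and each mark the centre of 1 match, filled where a T precedes or an A follows it; Lamp1 has 4 matches, Ctsa 2 in its second window, Ctsd 2 and Ctsl 1, and the other windows have none.

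Of the 9 tested members, 3 were called higher in KO (Ctsa, Ctsd and Lamp1), 4 were called lower (Ctsb, Ctsc, Ctsh and Ctsl) and 2 were not called (Ctsz and Tfeb). Over all tested genes 27.8% were called higher and 27.8% lower, and 14.1% were called with a change of at least 2-fold. The KO and WT libraries did not overlap for 8 of the 9 tested members, beside 64.0% of all tested genes. Since the set was picked from this contrast, nothing is read from these counts. Levels below are TMM-scaled CPM, and each fold change is KO over WT with its standard error (SE) from the edgeR fit. The labels do not say how cell types mix in a culture, and in bulk RNA fewer cells of a type and less RNA per cell cannot be told apart.

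**Figure D2:**
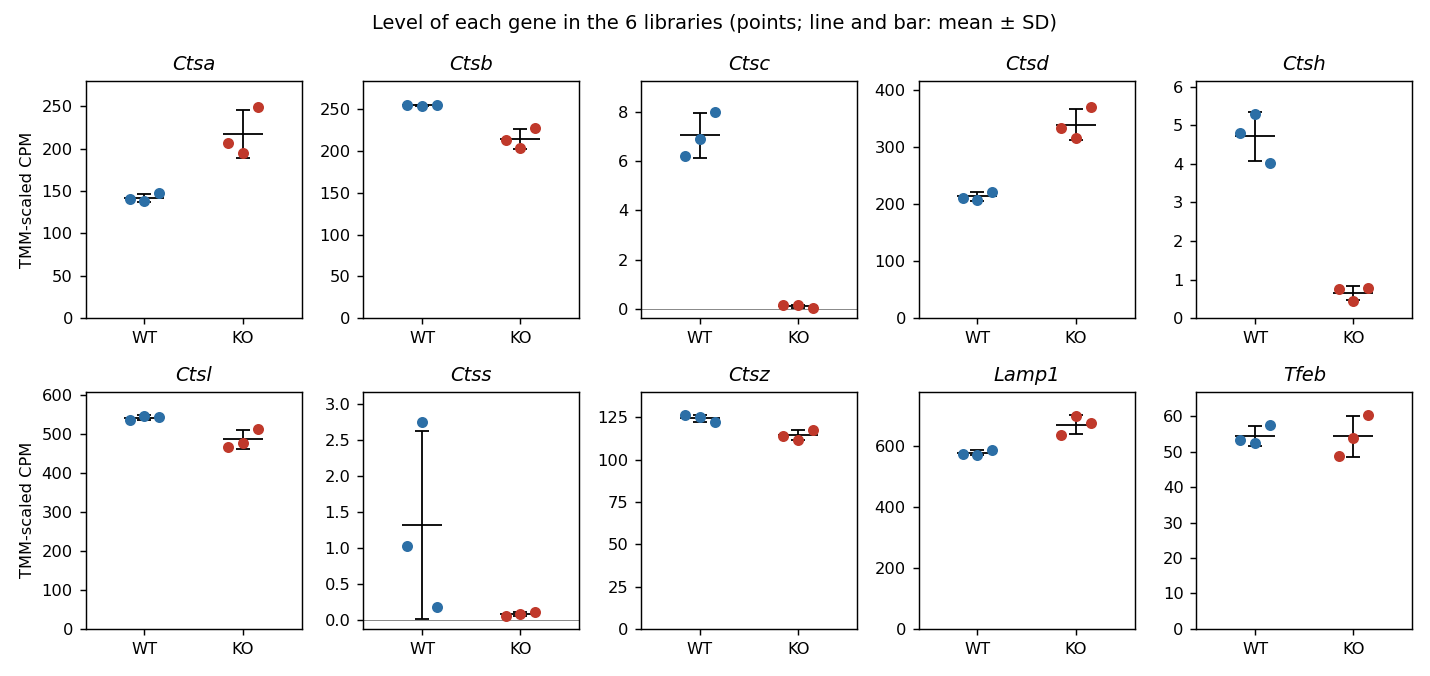
TMM-scaled CPM of the 10 genes (vertical axis, from 0, own scale per gene) in the WT and KO libraries; points are libraries, the line and bar are mean ± SD (n = 3 each). Ctsa, Ctsd and Lamp1 are above WT in every KO library, Ctsc and Ctsh are far below it, and Tfeb overlaps.

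Ctsd, the aspartic protease cathepsin D and the main aspartic protease of the lysosome, was higher in KO. It was at 333, 316 and 370 CPM in the KO libraries and 211, 208 and 222 CPM in the WT libraries. Every KO library was above every WT library. The means were 340 ± 27.6 and 214 ± 7.40 CPM (SD, n = 3 each), so KO stood at 159% of WT, and the log2 fold change was 0.67 (SE 0.06, 95% interval 0.53 to 0.81). The gene lies at chr7:142375911-142388038 on the - strand (GRCm38).

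Ctsa encodes the serine carboxypeptidase protective protein, cathepsin A, which also holds beta-galactosidase and neuraminidase 1 in a stable complex. It was at 207, 195 and 249 CPM in KO and 140, 138 and 148 CPM in WT. Every KO library was again above every WT library, with KO replicate 3 the highest. The means were 217 ± 28.3 and 142 ± 5.05 CPM (SD, n = 3 each), and the log2 fold change was 0.61 (SE 0.08, 95% interval 0.43 to 0.79). Its partners, taken from a list of other lysosomal hydrolases, were also called higher. Glb1 (beta-galactosidase) had a log2 fold change of 0.63 (SE 0.14, adjusted p = 0.0041, edgeR) and Neu1 (neuraminidase 1) one of 0.44 (SE 0.10, adjusted p = 0.00262, edgeR).

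The cysteine proteases made at high levels were lower in KO by small amounts or were not called. Ctsl, cathepsin L, a broad endopeptidase, was at 468, 478 and 513 CPM in KO and 535, 548 and 545 CPM in WT. The highest KO library was below the lowest WT library, and the log2 fold change was -0.16 (SE 0.05, 95% interval -0.27 to -0.04). Ctsb, cathepsin B, which cuts within proteins and also trims dipeptides from their ends, was at 213, 204 and 228 CPM in KO and 255, 254 and 256 CPM in WT. All 3 KO libraries lay below WT, which varied little (255 ± 0.686 CPM, SD, n = 3), and the log2 fold change was -0.25 (SE 0.05, 95% interval -0.36 to -0.13).

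Ctsz, the carboxypeptidase cathepsin Z (also called cathepsin X), was at 114, 112 and 118 CPM in KO and 126, 125 and 122 CPM in WT. The groups did not overlap, but the gene was not called, with a log2 fold change of -0.12 (SE 0.05, 95% interval -0.23 to -0.01). The small differences of these cysteine proteases depend on scaling. With library totals Ctsb was at -0.12 and Ctsl at -0.04, both then not called, and Ctsz was at 0.0022 with its sign turned. Relative to the median of all genes under that same scaling the values were -0.25, -0.16 and -0.12, as with TMM. Upper-quartile factors (-0.11) and leaving out KO replicate 1 (-0.13) or the WT libraries of replicate 1 (-0.17), 2 (-0.15) or 3 (-0.16) in turn also ended the call of Ctsl, and Ctsz was called at -0.14 without KO replicate 3.

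Reads at some of these genes could be shared with a neighbour. Of the 6051 exon bases of Ctsb, 774 are also exon bases of Fdft1 on the opposite strand, a gene of cholesterol synthesis with 6295 to 6950 counts in KO and 3094 to 4251 in WT. Ctsl shares 1742 of its 6489 exon bases with the antisense gene Gm47123 and 395 with the pseudogene Gm49230, neither of which is used here. Ctsa shares 495 of 4715 exon bases with Pltp and 324 with Neurl2, which had at most 162 counts in any library. Ctsd shares 808 of 2351 exon bases with Gm49369 on the same strand, a model with at most 2 counts. No source used here gives the strand setting of the counting, so reads of Ctsb and Fdft1 in the shared bases cannot be told apart and the part of this overlap in the Ctsb values was not tested.

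Ctsc, cathepsin C or dipeptidyl peptidase I, removes dipeptides from the ends of proteins and activates the serine proteases of granulocytes, mast cells and cytotoxic lymphocytes. The KO libraries held 5, 6 and 1 counts of it, against 217, 234 and 318 in WT. Each WT library was far above each KO library, and KO replicate 3 was under the floor of 3 counts used here. The means were 0.105 ± 0.0690 and 7.04 ± 0.909 CPM (SD, n = 3 each), and the fitted log2 fold change was -6.03 (SE 0.31, 95% interval -6.70 to -5.35). With so few KO counts the fitted value depends on the library taken out, from -6.38 without KO replicate 2 to -5.57 without KO replicate 3. The serine proteases that cathepsin C activates, a list of 11 genes such as elastase and granzymes, had no member that passed the filter, and their summed counts were 2, 14 and 13 in KO and 6, 3 and 3 in WT. The gene lies at chr7:88278085-88310888 on the + strand (GRCm38).

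Ctsh, cathepsin H, an aminopeptidase, was also lower in KO. It had 26, 18 and 30 counts in KO and 168, 179 and 160 counts in WT. The groups were well apart, with all KO libraries under 1 CPM. The means were 0.653 ± 0.183 and 4.71 ± 0.632 CPM (SD, n = 3 each), and the log2 fold change was -2.85 (SE 0.23, 95% interval -3.35 to -2.35). The gene lies at chr9:90054152-90076089 on the + strand (GRCm38).

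Ctss, cathepsin S, works mostly in antigen-presenting cells, where it cuts the invariant chain CD74 from MHC class II. It had 2, 3 and 4 counts in KO and 36, 93 and 7 counts in WT, too few for the filter, so it was not tested. All WT libraries were above the KO libraries, but the WT libraries differed widely among themselves, from 0.176 CPM in replicate 3 to 2.75 CPM in replicate 2. The WT mean was 1.32 ± 1.31 CPM and the KO mean 0.0780 ± 0.0232 CPM (SD, n = 3 each), the latter near the 0.0737 to 0.0886 CPM that 3 counts are worth in these libraries. Without WT replicate 2 the WT mean was 0.603 CPM, and without WT replicate 3 it was 1.89 CPM.

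Among markers of macrophages, Lyz2 moved with Ctss across the WT libraries, while Csf1r varied less, with 39, 50 and 41 counts in WT. In KO Csf1r had 15, 15 and 16 counts. Lyz2, the lysozyme of myeloid cells, had 61, 146 and 10 counts in WT and 1, 13 and 6 in KO, and the class II gene H2-Aa had 12, 20 and 4 in WT and 1, 1 and 4 in KO. Replicate 2 was the highest WT library for 12 of the 14 macrophage markers examined and for 4 of the 8 class II genes. The summed level of the macrophage markers was 3.30 to 9.65 CPM in WT and 2.36 to 2.81 CPM in KO. None of the 14 was at 0 in all KO libraries. The part of these markers in the Ctss values was not tested. The level in WT replicate 2 was 15.6 times that in WT replicate 3 for Ctss and 17.1 times for Lyz2. For Ctsh, whose WT libraries fall in the same order, the ratio was 1.31, and for Ctsc, whose order differs, it was 0.862. Cd74 fell in KO, with a log2 fold change of -1.50 (SE 0.27, adjusted p = 7.21e-04, edgeR), from 2.21 ± 0.599 to 0.780 ± 0.163 CPM (SD, n = 3 each). Of the 8 class II genes 2 were tested, and the one besides Cd74 was not called, at 0.21. The WT mean was above the KO mean for 5 of the 8.

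**Figure D3:**
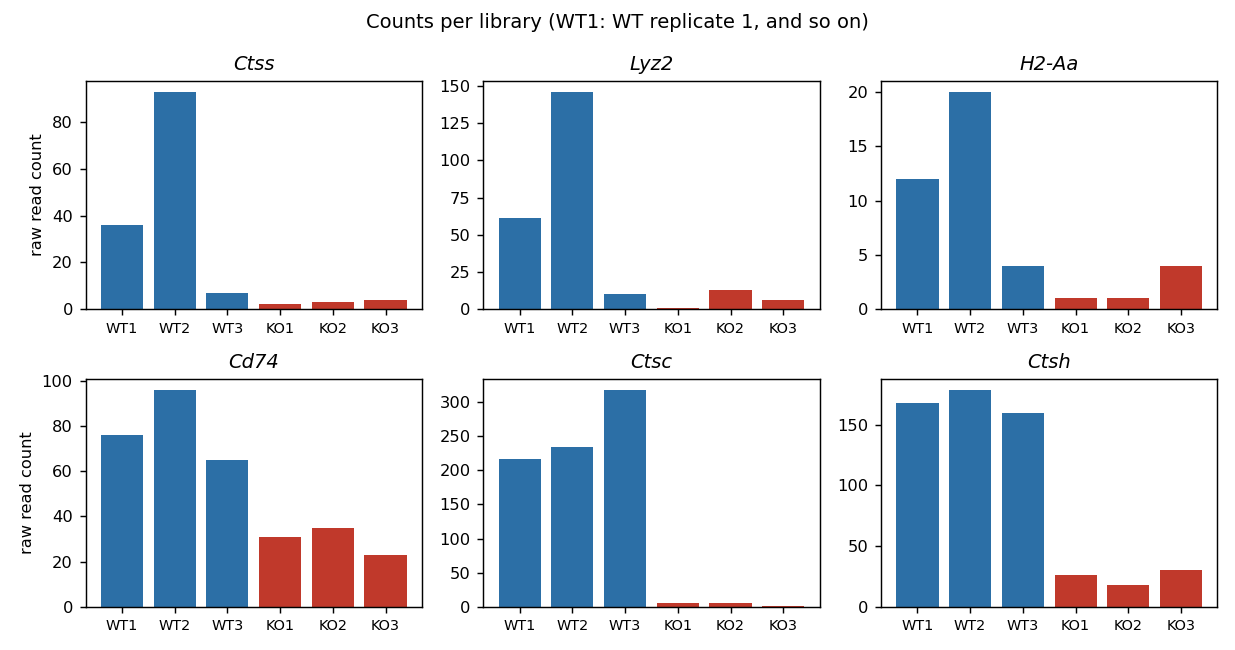
Raw read counts (vertical axis, from 0, own scale per gene) of Ctss, Lyz2, H2-Aa, Cd74, Ctsc and Ctsh in each of the 6 libraries, 1 bar per library. Ctss and Lyz2 are highest in WT replicate 2 (93 and 146 counts) and lowest among WT in replicate 3 (7 and 10), whereas Ctsc (217 to 318) and Ctsh (160 to 179) are similar in all WT libraries.

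Lamp1 was at 636, 697 and 673 CPM in KO and 574, 570 and 586 CPM in WT. The lowest KO library was above the highest WT library, and the difference was small, with a log2 fold change of 0.21 (SE 0.05, 95% interval 0.10 to 0.33). Its close relative Lamp2, which also serves chaperone-mediated autophagy, rose from 197 ± 4.69 to 285 ± 14.6 CPM (SD, n = 3 each; log2 fold change 0.53, SE 0.05, adjusted p = 1.50e-05, edgeR). The difference between the 2 genes' changes was not tested.

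Tfeb RNA did not separate the genotypes. It was at 48.9, 53.8 and 60.2 CPM in KO and 53.2, 52.5 and 57.6 CPM in WT, so the groups overlapped, with the lowest and the highest library both KO. The log2 fold change was -0.0041 (SE 0.08, 95% interval -0.18 to 0.17), and its sign turned with the scaling (0.12 with library totals, 0.05 with upper-quartile factors). The related factors Tfe3, Mitf and Tfec bind the same element. Tfe3 rose from 60.7 ± 2.57 to 89.4 ± 8.45 CPM (SD, n = 3 each; log2 fold change 0.56, SE 0.07, adjusted p = 8.44e-05, edgeR). Mitf, known for its role in pigment cells and osteoclasts, rose from 3.12 ± 0.232 to 5.81 ± 1.30 CPM (SD, n = 3 each; log2 fold change 0.89, SE 0.18, adjusted p = 0.00151, edgeR). Tfec was not tested, with 2 counts in WT replicate 2 and 0 in the other libraries.

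To compare levels between genes, CPM was divided by the length of each gene's merged exons in kilobases (GENCODE M21). In WT the order was Lamp1 at 215.5, Ctsd at 90.9, Ctsz at 86.3, Ctsl at 83.6, Ctsb at 42.1, Ctsa at 30.1 and Tfeb at 9.61 CPM per kilobase, and neighbours in this order did not overlap. Ctsc at 1.21, Ctsh at 1.05 and Ctss at 0.970 CPM per kilobase followed, and their WT libraries overlapped. The members therefore formed a group of 7 genes, each at a higher level per kilobase than 67.5% of tested genes or more in WT, and a group of 3 that stood above only 29.2 to 32.3% of them.

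In KO, Lamp1 stood at 250, Ctsd at 144.5, Ctsz at 79.47 and Ctsl at 74.95 CPM per kilobase, the last 2 overlapping. Ctsa at 46.0 CPM per kilobase now stood above Ctsb at 35.5, the reverse of their order in WT, and neither pair of ranges overlapped. Tfeb was at 9.58 CPM per kilobase, and Ctsh at 0.145, Ctss at 0.0575 and Ctsc at 0.0182 came last. Ctsc moved from above 32.3% of tested genes in WT to above 0.625% in KO, and Ctsh from 30.3% to 6.93%. With the length of the principal transcript in place of merged exons, an alternative chosen after seeing the data, Ctsl and Ctsz changed places in WT and so did Ctsh and Ctsc, and the KO order was the same.

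The make-up of the cathepsin RNA differed accordingly. Ctsd made up 37.9 ± 0.625% of the summed level per kilobase of the 8 cathepsins in KO and 27.0 ± 0.760% in WT (SD, n = 3 each). Ctsa took 12.0 ± 0.760% in KO and 8.95 ± 0.262% in WT. These were the cathepsins with a larger share in KO. The shares of Ctsz (20.9 ± 0.814% against 25.7 ± 0.630%), Ctsl (19.7 ± 0.606% against 24.9 ± 0.273%) and Ctsb (9.34 ± 0.127% against 12.5 ± 0.0706%) were smaller in KO. The ranges of the libraries did not overlap for any of these 5. The 8 cathepsins together took 0.133 to 0.156% of all counts in KO and 0.121 to 0.126% in WT, which is a share of library totals. With TMM scaling the groups were closer, at 1335, 1306 and 1479 CPM in KO and 1280, 1288 and 1304 CPM in WT. These shares and sums follow from the member values above and add no evidence of their own.

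**Figure D4:**
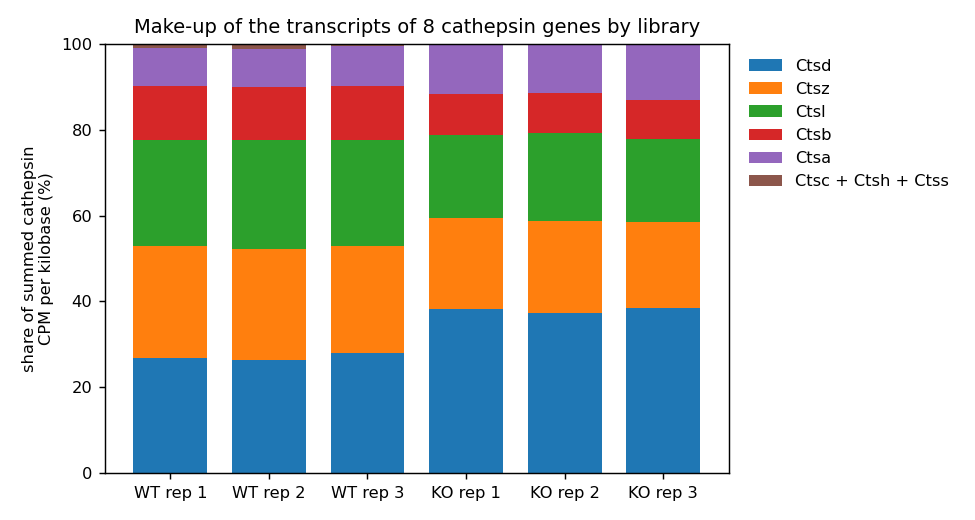
Share of each cathepsin in the summed CPM per kilobase of the 8 cathepsins, in percent, for each library, as stacked bars with Ctsc, Ctsh and Ctss summed. Ctsd takes 37.3 to 38.5% in the KO libraries and 26.4 to 27.9% in the WT libraries, while the shares of Ctsz, Ctsl and Ctsb are smaller in KO.

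Other genes of the pathway were taken from 8 lists written out from pathway knowledge with earlier results of these data known. Together they hold 194 genes of the table, of which 170 were tested: 81 were called higher, 28 lower and 61 not called (64.1% called, beside 55.7% of all tested genes, or 27.8% higher and 27.8% lower). With library totals 101 were called higher and 21 lower, beside 5771 and 3294 of all tested genes. With upper-quartile factors 93 and 28 were, beside 4993 and 3927 of all tested genes. The median of the lists less that of all genes was 0.16 with TMM and with both of these scalings. The median log2 fold change of the 170 genes was 0.17, beside 0.01 for all tested genes. By list, the share called was 57.8% of the other hydrolases, 72% of the membrane genes, 57.9% of the V-ATPase and 76.2% of the Tfeb relatives and control. It was 54.5% for hydrolase sorting, 70% for autophagy, 75% for the cathepsin inhibitors and 50% for the other cathepsins. Called changes of at least 2-fold were seen in 11 of the 170 genes upward and 3 downward. Over all 16033 tested genes there were 1298 upward and 963 downward, which together are 14.1%.

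The other cathepsins were mostly silent. Of 14 genes, 7 had 0 counts in all libraries, 4 were tested, 1 was called higher and 1 lower. Their median of 0.32 rests on 4 genes: it was 0.04 without KO replicate 1, 0.52 without KO replicate 2, -0.15 with no filter and -1.80 with a filter of 1 CPM. Ctsf, cathepsin F, another lysosomal cysteine protease, had 1, 5 and 2 counts in KO and 76, 75 and 81 in WT, so the libraries were far apart (log2 fold change -4.88, SE 0.37, adjusted p = 2.37e-06, edgeR). All KO counts of Ctsf were under the minimum count of the filter, so it was tested only because its WT counts were high. Its adjusted p is given with that limit. Without KO replicate 2 the log2 fold change of Ctsf was -5.61. Ctso, cathepsin O, rose from 0.514 ± 0.0504 to 1.25 ± 0.114 CPM (SD, n = 3 each; log2 fold change 1.27, adjusted p = 0.00145, edgeR). Without WT replicate 3 the number called higher was 2.

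Among 13 cathepsin inhibitors 4 were tested, of which 2 were called higher and 1 lower. Their median of 0.20 also rests on 4 genes and turned to -0.09, -0.12 and -0.15 without KO replicate 1, 2 and 3, to -0.10 without WT replicate 2 and to -0.10 with no filter. Cstb, stefin B, which binds cysteine cathepsins in the cytoplasm, fell from 68.1 ± 3.45 to 40.5 ± 2.83 CPM (SD, n = 3 each; log2 fold change -0.75, SE 0.07, adjusted p = 7.72e-06, edgeR). Cst3, the secreted cystatin C, was at 60.8 ± 2.68 CPM in WT and 55.8 ± 2.33 CPM in KO and was not called (log2 fold change -0.12, adjusted p = 0.100, edgeR). Ctla2a, whose product resembles the propeptide of a cysteine protease, rose by 0.69 on the log2 scale (adjusted p = 0.0014, edgeR). Its neighbour in sequence Ctla2b was called higher at 0.53 (adjusted p = 0.038, edgeR), with adjusted p from 0.0152 to 0.138 over the alternatives, and reads of such similar genes can be split between them. Its call ended without KO replicate 2 or 3 or WT replicate 1 or 3, with no filter and with the DESeq2 test, and in each of these 1 inhibitor was called higher. Without WT replicate 2 the inhibitors called lower were 2.

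All 45 other lysosomal hydrolases were tested, of which 22 were called higher, 4 lower and 19 not called (median 0.19). Arsa, arylsulfatase A, which degrades sulfatides, rose from 10.4 ± 0.806 to 32.1 ± 6.34 CPM (SD, n = 3 each; log2 fold change 1.62, adjusted p = 7.84e-06, edgeR). Ggh, a gamma-glutamyl hydrolase of folates, rose by 1.21 on the log2 scale (adjusted p = 9.21e-04, edgeR). Gm2a, the activator protein that presents GM2 ganglioside to its hydrolase, fell from 49.4 ± 1.12 to 22.8 ± 0.955 CPM (SD, n = 3 each; log2 fold change -1.11, adjusted p = 3.12e-07, edgeR).

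Of 25 other lysosomal membrane genes in the table, all tested, 13 were called higher and 5 lower (median 0.22). The largest changes among them at 1 CPM or more were Ctns, the cystine exporter, with a log2 fold change of 1.06 (adjusted p = 2.65e-05, edgeR), and Slc17a5, the sialic acid exporter, with 0.97 (adjusted p = 2.88e-04, edgeR). Mcoln1, the calcium channel that releases the calcium activating calcineurin and TFEB, rose from 29.6 ± 3.13 to 53.7 ± 5.71 CPM (SD, n = 3 each; log2 fold change 0.86, adjusted p = 2.97e-05, edgeR). Tmem175, a potassium and proton channel, rose by 0.73 on the log2 scale (adjusted p = 5.02e-04, edgeR).

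The proton pump that acidifies the lysosome, the V-ATPase, was mixed. Of 23 genes 19 were tested, 7 were called higher and 4 lower. The median was 0.03, and 0.01 to 0.08 when 1 library was left out, lowest without KO replicate 3 or WT replicate 3 and highest without KO replicate 1. Atp6v0a1, a membrane subunit, rose from 41.1 ± 2.41 to 76.8 ± 7.06 CPM (SD, n = 3 each; log2 fold change 0.90, adjusted p = 4.91e-06, edgeR), and Atp6v0e2 rose by 0.61 (adjusted p = 1.43e-04, edgeR). The accessory subunits went in opposite directions, Atp6ap2 with a log2 fold change of 0.40 (adjusted p = 4.75e-05, edgeR) and Atp6ap1 with one of -0.37 (adjusted p = 3.81e-04, edgeR). The number called lower was 2 without KO replicate 1 and 2 with library totals.

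Of 22 genes related to Tfeb or controlling it, 21 were tested, 10 were called higher and 6 lower (median 0.16). Beside Tfe3 and Mitf, Ppp3cb, a catalytic subunit of the phosphatase calcineurin that acts on TFEB, fell from 87.7 ± 2.86 to 63.9 ± 0.495 CPM (SD, n = 3 each; log2 fold change -0.46, adjusted p = 3.44e-05, edgeR). Rragb, a GTPase that recruits mTORC1 to the lysosome, was called lower at a low level, 1.04 ± 0.137 CPM in WT and 0.341 ± 0.177 CPM in KO (SD, n = 3 each; log2 fold change -1.57, adjusted p = 0.00331, edgeR).

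Genes that sort hydrolases to the lysosome had 22 of 22 tested, 10 called higher and 2 lower, and 6 called higher without WT replicate 2 and 6 without WT replicate 3. The median was 0.13, and 0.04 without KO replicate 2. Igf2r, the larger of the mannose 6-phosphate receptors that carry cathepsins, rose from 293 ± 9.69 to 420 ± 30.6 CPM (SD, n = 3 each; log2 fold change 0.52, adjusted p = 4.51e-05, edgeR). M6pr, the smaller receptor, was at 282 ± 8.57 CPM in WT and 263 ± 15 CPM in KO and was not called (log2 fold change -0.10, adjusted p = 0.149, edgeR), with a value of 0.02 under library totals and a call at -0.14 (adjusted p = 0.00754, edgeR) without KO replicate 2. Gnptab, the enzyme that begins the mannose 6-phosphate tag, fell from 213 ± 3.50 to 148 ± 5.01 CPM (SD, n = 3 each; log2 fold change -0.53, adjusted p = 8.86e-06, edgeR). Vps18 and Vps11, shared core subunits of the HOPS and CORVET tethering complexes, rose by 0.63 (adjusted p = 2.16e-04, edgeR) and 0.57 (adjusted p = 9.76e-05, edgeR) on the log2 scale.

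All 30 autophagy genes were tested, with 16 called higher and 5 lower (median 0.20), or 3 lower with library totals. Ulk1, the kinase that starts autophagy, rose from 38.2 ± 2.68 to 91.8 ± 19.6 CPM (SD, n = 3 each; log2 fold change 1.26, adjusted p = 1.25e-04, edgeR). Nbr1, a cargo receptor, rose from 53.5 ± 2.05 to 112 ± 15.8 CPM (SD, n = 3 each; log2 fold change 1.06, adjusted p = 7.88e-06, edgeR). Atg2a, a lipid transfer protein of the growing autophagosome, and Atg14, a subunit of the lipid kinase complex at its start, rose by 1.03 (adjusted p = 1.52e-05, edgeR) and 1.02 (adjusted p = 4.09e-05, edgeR) on the log2 scale.

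**Figure D5:**
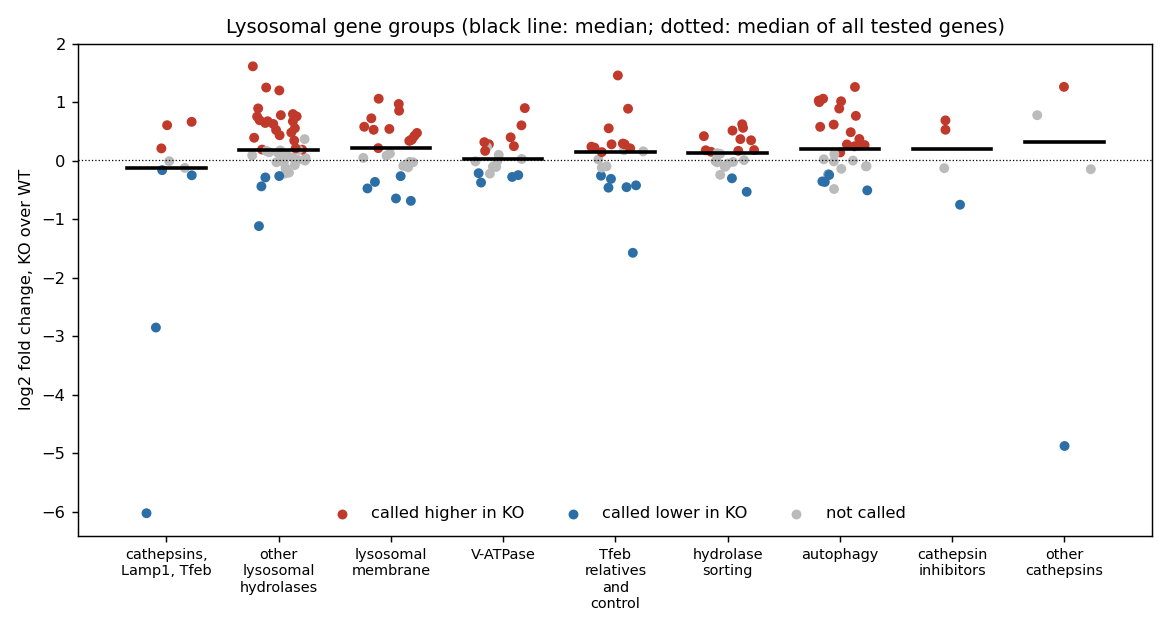
Log2 fold change (KO over WT) of every tested gene in the 8 lysosomal lists and of the members; points are genes, coloured by call at an adjusted p under 0.05, the black line is the list's median and the dotted line the median of all tested genes. The 6 lists with more than 4 tested genes have medians from 0.03 (V-ATPase) to 0.22 (lysosomal membrane), the 9 tested members have one of -0.12, and the medians of the cathepsin inhibitors and the other cathepsins rest on 4 genes each and turn sign under some alternatives.

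The E-box forms shown above were also counted in these lists. TCACGTG or CACGTGA was present in the windows of 33 of the 155 lysosomal genes with a window (21.3%), which include genes that were not tested. Beside this stand 4.29% of all genes with a window and 6.77% of all tested genes with one. By call the shares were 17 of 68 genes called higher (25%), 4 of 21 called lower (19.0%) and 12 of 46 not called (26.1%). Over all tested genes with a window they were 7.52%, 6.23% and 6.64% in the same order. The lists differed among themselves. In the other hydrolases 7 of 17 genes called higher held it, 0 of 3 called lower and 2 of 14 not called. In the V-ATPase the counts were 1 of 7, 2 of 3 and 1 of 4 in the same order, among the Tfeb relatives and regulators 1 of 8, 1 of 5 and 3 of 5, and in hydrolase sorting 3 of 8, 0 of 2 and 5 of 7. Among the lysosomal membrane genes they were 3 of 11, 0 of 3 and 1 of 7, and in autophagy 2 of 14, 1 of 4 and 0 of 7. The other cathepsins and the cathepsin inhibitors held none. These shares are given as a description, with no test, and they do not speak to what binds there.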

How the data were processed

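The authors deposited a table of raw read counts per Ensembl gene for the 6 libraries. Per the labels' protocols, libraries of total RNA were prepared with an NEBNext Ultra II kit. The submitters' processing notes name bcl2fastq 2.17, Trimmomatic 0.36, STAR 2.5.2b, Subread 1.5.2, DESeq2 and build GRCm38 (mm10). Not given in the sources used here: annotation release, strand setting and treatment of multimapping reads. Of 49315 identifiers, 49056 matched GENCODE M21 (GRCm38), which gave symbols, positions and exon lengths, and 259 did not.

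Genes passing filterByExpr (minimum count 10) entered an edgeR fit (version 4.0.16, R 4.3.3): TMM scaling, quasi-likelihood test, genotype only, Benjamini-Hochberg adjustment over all 16033 tested genes, threshold 0.05. Tests were checked on simulated data in which few genes changed, so the check does not cover changes as broad as those called here. Replicate counts differed by more than sampling noise. KO replicate 2 was the KO library nearest WT, with correlations of log CPM of 0.9782 to 0.9804, beside 0.9661 to 0.9728 for KO replicates 1 and 3. Without KO replicate 2, 10002 genes were called in place of 8925. A floor of 3 counts marked the limit of detection, which covers counting error only.

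The members and the lists were chosen with earlier results of these data known. Named list genes were up to 4 called genes per list with the greatest absolute log2 fold change at 1 CPM or more in the higher genotype, plus Tfe3, Mitf, Tfec, M6pr, Igf2r, Cst3, Cstb, Lamp2, Glb1, Neu1 and Cd74. A gene that this rule names is not reported here. Lyz2, H2-Aa and Csf1r were named after their values were seen. Of 252 list entries, 251 matched the table. Promoters came from RefSeq (GRCm38.p6) and matched 8 of 10 members. Alternatives were other scalings, other filters, DESeq2 1.42.0, limma 3.58.1 (voom), a replicate block, leaving out each library and, added after seeing the data, principal transcript length.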

Additional observations from a re-analysis of the deposited data

How the results depend on the processing

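Under the 14 alternative fits, the calls and directions of Ctsa, Ctsd, Lamp1, Ctsc and Ctsh were kept. With library totals 2 members were called lower in place of 4, since Ctsb and Ctsl were not called; that scaling raises the median of all genes to 0.13 and makes 63.7% of calls higher, beside 50% with TMM. It also gave log2 fold changes of 0.0022 for Ctsz, 0.12 for Tfeb and 0.02 for M6pr, whose signs were then positive. Tfeb was also positive with upper-quartile factors (0.05) and with a filter of 1 CPM (0.0039), and leaving out 1 library at a time gave -0.09 to 0.07. The causes of the other changes were not tested. Ctss could be fitted with no filter, at -4.00 (SE 0.87), where it was called lower and the members called lower were 5. It also entered the fits without KO replicate 1 (-3.83, called lower), KO replicate 2 (-3.94, not called), KO replicate 3 (-4.22, not called) and WT replicate 3 (-4.53, called lower). Leaving out 1 library at a time gave 3 to 5 members called lower. A fit with the replicate block called 8878 genes in place of 8925 and 3 members higher and 4 lower. The labels number the libraries of both genotypes as sets 1 to 3. Same-numbered libraries correlated at -0.0802, 0.0644 and 0.0584 in their deviations from the group means, and KO replicate 1 correlated best with WT replicate 3 (0.114). No pairing by number was seen, but deviations within 3 libraries cannot exclude a weak one. Few counts in 3 libraries per genotype limit what can be said of Ctsc in KO and of Ctss.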
